A study of Mus musculus with 2 samples.

Results

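The BCL2 family decides whether the outer membrane of mitochondria is broken open during apoptosis, and 10 of its genes were described here in hepatocytes after acetaminophen (APAP). The genes were taken by symbol from the 20823 genes of the raw count table, and each symbol matched a single listed Ensembl identifier. They fall into 3 classes: the anti-apoptotic genes Bcl2l1 and Mcl1, the effector genes Bax and Bak1, and the BH3-only genes Bid, Bcl2l11, Bbc3, Pmaip1, Bmf and Bik. The study consisted of 1 library of hepatocytes collected 24 h after an intraperitoneal injection of 300 mg/kg APAP in saline, and 1 library of control hepatocytes that received no agent. Both came from livers of C57BL6J mice at an age of 8 weeks. The cells were isolated by collagenase perfusion and depleted by flow cytometry of cells bearing CD31 or CD45, and 20000 hepatocytes of the Cxcr2hi gate were sorted. The sources used here do not give the number of animals behind a library.

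The effectors BAX and BAK form pores in the mitochondrial outer membrane, through which cytochrome c escapes and activates caspases. BCL-XL, the main product of Bcl2l1, and MCL1 hold the effectors and the BH3-only proteins in a surface groove, and loss of either from mouse hepatocytes leads to spontaneous hepatocyte death. BH3-only proteins are the stress sensors of the family: each inserts a short helix, the BH3 motif, into that groove, and some also activate the effectors directly. Much of this control acts on protein cleavage, phosphorylation and turnover, which transcript counts do not measure. APAP injury of hepatocytes is known mainly as necrosis that starts at mitochondria, in which BAX has been reported to take part early.

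The feature that joins the classes is the BH3 motif itself, so its coding stretch is shown for 9 members, all but Pmaip1. The motif was searched as a leucine codon, any 3 codons, a glycine or alanine codon and an aspartate codon. The search ran on the principal coding sequence of each gene in GENCODE M21 (build GRCm38). The motif occurred exactly once in each of these 9 members, with Pmaip1 left out. Of all 22011 principal coding sequences, 18.2% had exactly 1 match and 23.5% had 1 match or more. A match alone therefore does not mark a family member. Each line gives 30 bases, 5′ to 3′ on the coding strand, with the leucine codon and the glycine-aspartate or alanine-aspartate codons in capitals.
Bcl2l1: caagcgCTGagagaggcaGGCGATgagttt
Mcl1: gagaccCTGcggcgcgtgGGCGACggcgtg
Bax: gagtgtCTCcggcgaattGGAGATgaactg
Bak1: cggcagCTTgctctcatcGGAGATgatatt
Bid: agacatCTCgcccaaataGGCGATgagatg
Bcl2l11: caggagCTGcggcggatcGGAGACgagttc
Bbc3: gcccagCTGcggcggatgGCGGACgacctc
Bmf: agaaagCTTcagtgtattGCAGACcagttc
Bik: ttgaggCTGgcctgcatcGGCGATgagatg
The codon before aspartate was glycine in 7 members and alanine in Bbc3 and Bmf. The motif stood in the front part of Bax and Bik, with leucine at codon 63 of 192 in Bax and codon 55 of 150 in Bik. It stood towards the end of Bcl2l11 and Bmf, at codon 150 of 196 in Bcl2l11 and codon 224 of 271 in Bmf. Bcl2l11 and Bbc3 shared 21 of 30 bases of the window, while Bcl2l1 and Bmf shared 11. The windows were aligned on the searched codons, so a part of the shared bases follows from the search. A pair from different classes could share as many bases as a pair from the same class. The windows of the effector gene Bak1 and the BH3-only gene Bik shared 19 bases, as did those of the BH3-only genes Bid and Bik. A separation of the classes by this stretch was not tested.

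Most of these transcripts differed by less than 2-fold between the libraries. Smaller differences, most of them upward, are given below. Of the 10 members, 9 held at least 20 counts in both libraries together. Fold is the ratio of scaled counts, APAP over control, and a gene was called when it reached 2-fold with a 95% counting interval that excluded 1. Bik alone was called higher, and 0 members were called lower. Among all 14096 genes with at least 20 counts, 10.7% met the rule upward and 7.09% downward. Among the genes with at least 100 counts, a depth that each of these 9 members reached, 7.14% met it upward. A single member of 9 is close to these shares. Each group being a single library, no difference has a replicate check, no p-value could be given, and every interval covers counting error only. Reads carried no molecular identifiers and are not independent molecules.

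**Figure D1:**
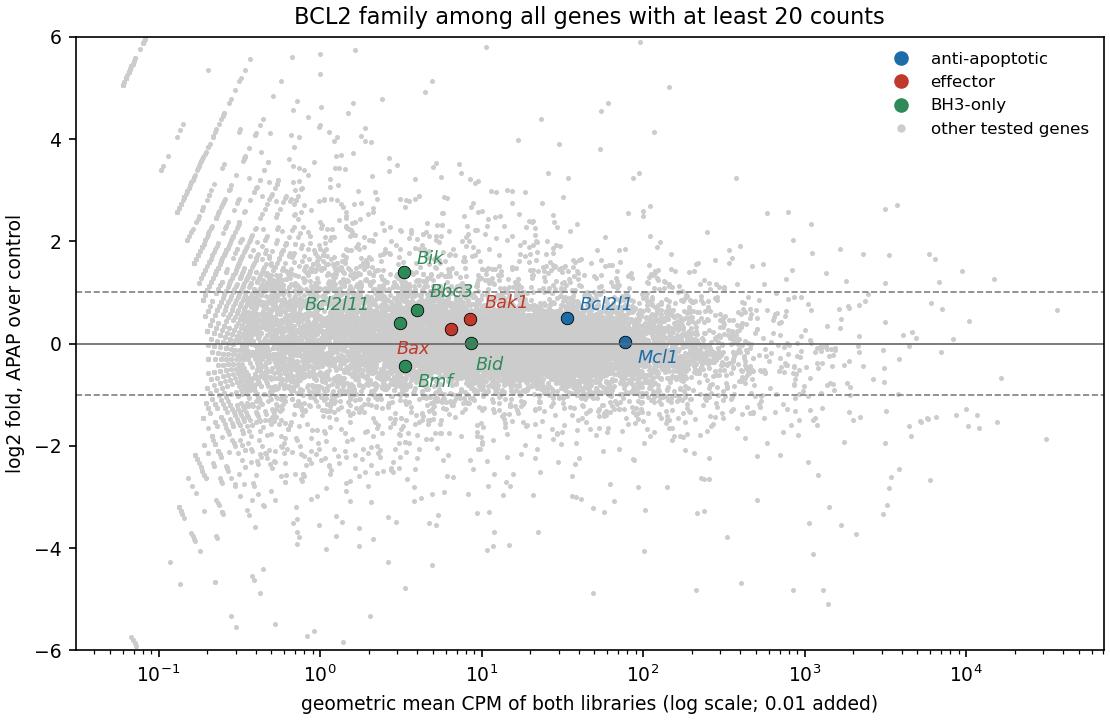
Each point is a gene with at least 20 counts, placed by its geometric mean level in CPM (counts scaled to a library size of 1000000; log axis, 0.01 CPM added) and its log2 fold, APAP over control; dashed lines mark 2-fold, and 55 genes lie beyond 6 in log2. Bik stands above the upper dashed line, and the other 8 members shown lie between the dashed lines.

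Levels are given in CPM after correction of library sizes by the trimmed mean of M-values (TMM). Library totals were 51009898 counts for APAP and 52419864 for control, with 19358 and 18058 genes detected. A single count was worth 0.0174 CPM in the APAP library, against 0.0215 CPM in the control library. The scaling bears on all directions below: library totals without TMM moved the log2 fold of every gene up by 0.35, and with it the median of all tested genes, which was 0.02 with TMM and 0.37 with totals. All 8 hepatocyte markers were detected and summed to 72691 CPM in the APAP library, against 54716 CPM in the control library, with Alb alone at 45856 CPM in APAP and 29194 CPM in control. Ttr, Apob, Serpina1c, Hnf4a and Cps1 had ratios below 1, from 0.713 for Cps1 to 0.949 for Hnf4a. Cxcr2 had 2 counts in the APAP library and 0 in the control library. Of 8 neutrophil and 6 lymphocyte markers, 3 had a row, with at most 2 counts in either library. Summed markers of other cells were higher in the APAP library. Of 8 macrophage markers, 5 had a count in the APAP library and 1 in the control library, while Adgre1, Clec4f and C1qb had no row. Their sums were 5.72 CPM in APAP against 0.0645 CPM in control. Cd68 alone gave 4.99 CPM of the APAP sum and all of the control sum, and Csf1r had 24 counts in APAP and 0 in control. Stellate cell and fibroblast markers summed to 10.8 CPM in APAP against 1.097 CPM in control. Reln alone gave 9.39 CPM of the APAP sum and 0.753 CPM of the control sum. Col3a1 had 21 counts in APAP and 0 in control, Pdgfrb 14 and 0, and Des 16 and 2, with intervals above 1. Dcn had 23 and 12, Lrat 6 and 2, and Col1a1 2 and 0, with intervals that included 1. Of 6 cholangiocyte markers only Sox9 and Spp1 had rows, with a sum of 34.3 CPM in APAP against 3.01 CPM in control. The 8 endothelial markers summed to 19.4 CPM in APAP against 15.9 CPM in control. Of these, 4 were called higher (Pecam1, Tek, Cdh5 and Lyve1, from 3.11-fold for Pecam1 to 7.48-fold for Lyve1) and Stab2 was called lower, at a ratio of 0.479. The part of such cells in the levels of the BCL2 family was not tested, and in a bulk library fewer cells of a type and less RNA per cell cannot be told apart.

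Both anti-apoptotic genes were well expressed, and Mcl1 was the most abundant family transcript. Mcl1 (ENSMUSG00000038612), which encodes a short-lived survival protein, had 4507 counts or 78.4 CPM in the APAP library and 3589 counts or 77.2 CPM in the control library. Its fold of 1.02 had an interval of 0.972 to 1.06, so that a fold above 1.06 or below 0.972 lies outside the counting error in this scaling, whereas library totals gave 1.29 (1.24 to 1.35). Bcl2l1 (ENSMUSG00000007659) had 2298 counts or 39.97 CPM in the APAP library and 1317 counts or 28.3 CPM in the control library. The fold of Bcl2l1 was 1.41 (1.32 to 1.51), below the 2-fold threshold, and 1.79 with library totals. The quotient of Bcl2l1 to Mcl1 counts does not depend on the scaling: it was 0.510 in the APAP library and 0.367 in the control library, a ratio of 1.39 (1.28 to 1.51). Counts per gene do not separate the long and short splice forms of either gene, which in human cells have opposite effects on survival.

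The effector genes lay side by side. Bak1 (ENSMUSG00000057789) had 579 counts or 10.1 CPM in the APAP library and 335 counts or 7.20 CPM in the control library. Bax (ENSMUSG00000003873) had 412 counts or 7.17 CPM in the APAP library and 272 counts or 5.85 CPM in the control library. Neither met the 2-fold rule: the fold was 1.40 (1.22 to 1.60) for Bak1 and 1.22 (1.05 to 1.43) for Bax. With all counts halved, as would fit read mates counted separately, the interval of Bax reached from 0.982 to 1.53 and no longer excluded 1. In the annotation used here, 12.2% of the exon length of Bax is shared with Gm45808 on the same strand. For Bak1, 18.2% is shared with an entry named Ggnbp1 on the opposite strand. Reads of such stretches may be lost or assigned to either gene, and their handling is not given in the sources used here.

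Log2 folds of the BH3-only genes ran from -0.44 for Bmf to 1.40 for Bik among the 5 members with at least 20 counts, more members than the 2 of each other class. Bik (ENSMUSG00000016758), whose product sits mainly at the endoplasmic reticulum in human cells, had 308 counts or 5.36 CPM in the APAP library and 94 counts or 2.02 CPM in the control library. The fold of Bik was 2.65 (2.10 to 3.38), and 7.34% of all tested genes had a higher one. Bbc3 (ENSMUSG00000002083) encodes PUMA, a target of p53 that binds all anti-apoptotic members, and had 287 counts or 4.99 CPM in the APAP library and 147 counts or 3.16 CPM in the control library. The fold of Bbc3 was 1.58 (1.29 to 1.94). It was 2.01 (1.64 to 2.46) with library totals, just past the 2-fold threshold, where 17.3% of all tested genes were called higher.

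Bcl2l11 (ENSMUSG00000027381), which encodes BIM, a direct activator of the effectors, had 207 counts or 3.60 CPM in the APAP library and 126 counts or 2.71 CPM in the control library. The fold of 1.33 for Bcl2l11 had an interval of 1.06 to 1.67, which widened to 0.962 to 1.85 with halved counts. Bid (ENSMUSG00000004446), whose protein is cut by caspase-8 and carries death receptor signals to mitochondria in hepatocytes, led the BH3-only genes in length-uncorrected CPM. It had 499 counts or 8.68 CPM in the APAP library and 400 counts or 8.60 CPM in the control library, a fold of 1.01 (0.883 to 1.15), or 1.28 with library totals and just below 1 with the size factors of DESeq2. Exons of Bid share 17.7% of their length with Bcl2l13 on the opposite strand, itself a relative of the family.

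Bmf (ENSMUSG00000040093), which encodes a BH3-only protein tethered to actin-linked motors, was the only tested member whose interval lay below 1, and with library totals the interval included 1. It had 165 counts or 2.87 CPM in the APAP library and 181 counts or 3.89 CPM in the control library. The fold of Bmf was 0.737 (0.593 to 0.916) and did not meet the rule; with halved counts the interval reached 1.01, and with library totals the fold was 0.937 (0.754 to 1.16). Pmaip1 (ENSMUSG00000024521), which encodes NOXA, a p53 target that binds MCL1, was near absent, with 0 counts in the APAP library and 4 in the control library. The upper counting bound of Pmaip1 was 0.0642 CPM in the APAP library, against 0.0860 CPM (0.0234 to 0.220) in the control library. The exact interval of the Pmaip1 ratio ran from 0 to 1.23, and a difference could not be detected at this depth.

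Counting intervals of the fold lay wholly above 1 for 6 of the 9 tested members and wholly below 1 for 1, against 34.1% and 33% of all tested genes. With halved counts the intervals of Bax, Bcl2l11 and Bmf included 1. With library totals, which move every fold up, the intervals of Mcl1 and Bid also lay above 1, and that of Bmf included 1. Such intervals narrow with depth, and these shares cover all genes with at least 20 counts. No share of this kind was formed for deeper genes alone. A fold of at least 1.5 with an interval above 1 was found for Bik and Bbc3, that is 2 of 9, against 17.6% of tested genes. The median log2 fold of the 9 members was 0.41, beside 0.02 over all tested genes. In the order by fold, Bbc3, Bcl2l1, Bak1, Bcl2l11 and Bax, from all 3 classes, stood next to each other, between Bik above and Mcl1, Bid and Bmf below.

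**Figure D2:**
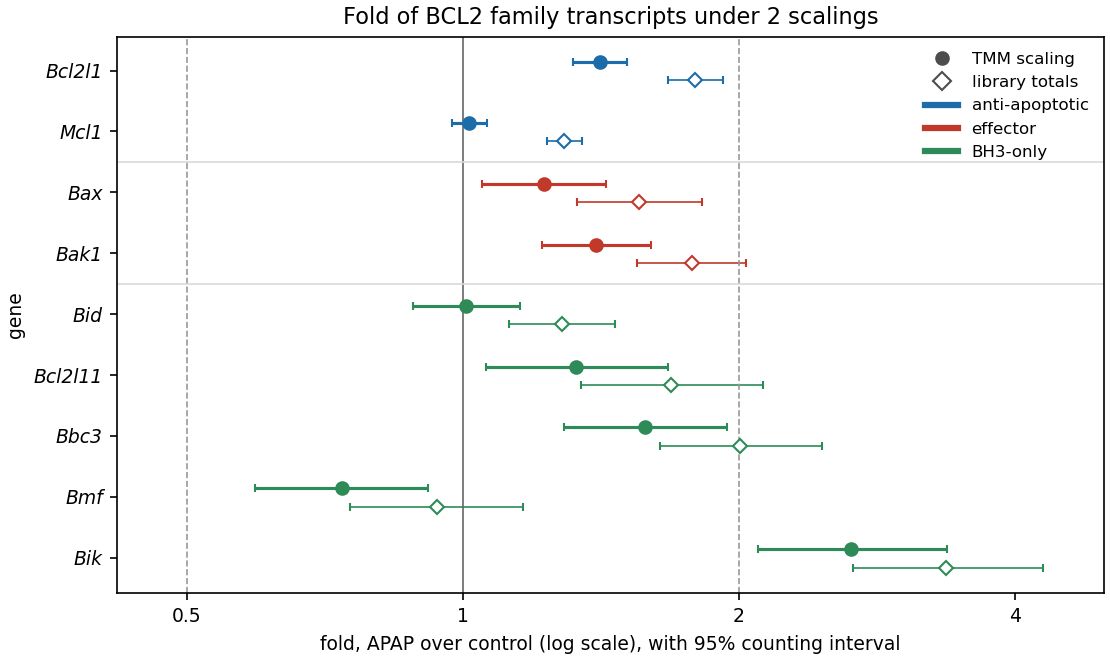
Points give the fold of each of the 9 members with at least 20 counts, APAP over control (log axis), with TMM scaling (filled) and with library totals (open), and bars their 95% counting intervals; dashed lines mark 2-fold. Bik lies past 2-fold in both scalings, and Bbc3 moves to 2.01 with library totals.

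Because levels of different genes depend on their length, the order of the members was read in CPM per kb of exon length, with lengths from GENCODE M21. In the APAP library Mcl1 stood first at 22.9 CPM per kb and Bcl2l1 second at 8.72 CPM per kb. Bax at 4.55 and Bak1 at 4.18 CPM per kb followed. Per kb of exon length they did not differ beyond their counting intervals, as was also so in the control library. Next came Bik at 3.37 CPM per kb, then Bid at 2.44 and Bbc3 at 2.35 CPM per kb, which did not differ beyond their intervals. Bmf at 0.546 and Bcl2l11 at 0.448 CPM per kb, again with overlapping intervals, stood far below, and Pmaip1 was last. In the control library the first 4 places were the same, with Mcl1 at 22.6, Bcl2l1 at 6.18, Bax at 3.71 and Bak1 at 2.99 CPM per kb. Bid at 2.42 CPM per kb was the leading BH3-only gene there, followed by Bbc3 at 1.49 and Bik at 1.27 CPM per kb with overlapping intervals, Bmf at 0.741 and Bcl2l11 at 0.337 CPM per kb. Bik was thus number 5 of the order in the APAP library, above Bid and Bbc3, and number 7 in the control library, below Bid and within error of Bbc3. With the length of the principal transcript in place of all exons, Bik kept these places, but its lead over Bid in the APAP library nearly vanished. Bik then had 4.013 CPM per kb there, beside 3.965 for Bid and 4.219 for Bak1. Bcl2l11 and Bmf exchanged places in the APAP library, and Bak1 and Bid in the control library. Bax and Bak1 stood further apart with this length, at 8.265 and 4.219 CPM per kb in APAP and 6.746 and 3.018 in control. Counting intervals were not formed for levels with this length.

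**Figure D3:**
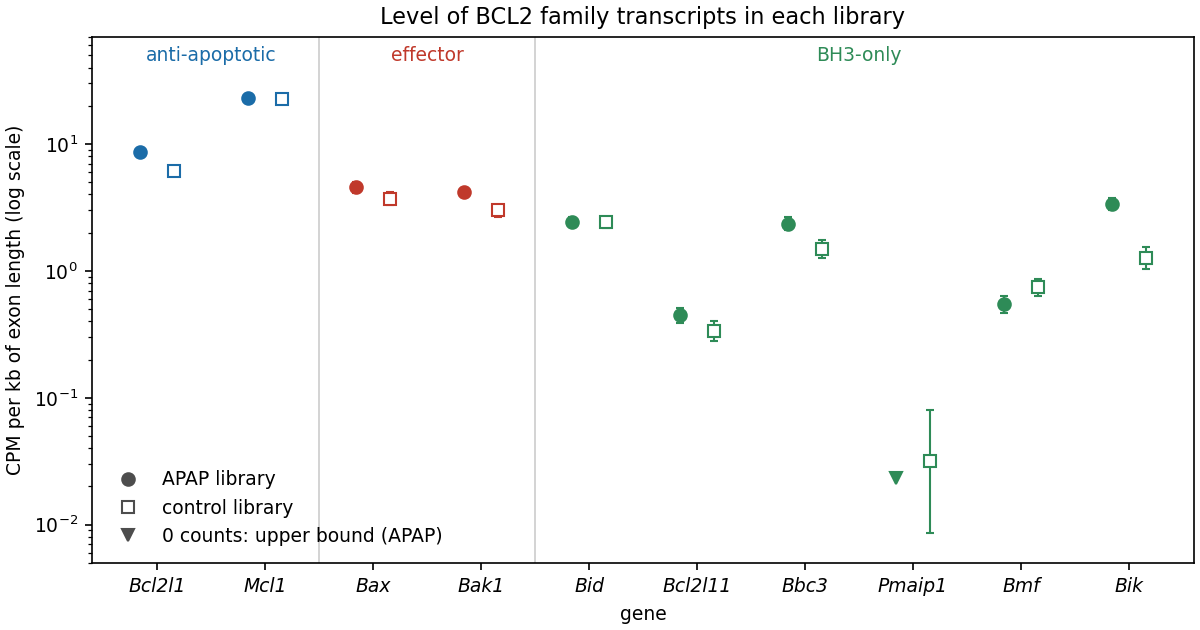
Levels of the 10 genes in CPM per kb of exon length (log axis) in the APAP library (filled circles) and the control library (open squares), with exact 95% Poisson intervals; the triangle is the upper bound for 0 counts. Mcl1 and Bcl2l1 stand above all effector and BH3-only genes in both libraries, and Pmaip1 lies below 0.1 CPM per kb.

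The 3 classes were compared by their summed counts. The anti-apoptotic class had 118 CPM in the APAP library, against 105 CPM in the control library, a fold of 1.12 (1.08 to 1.16). The effector class had 17.2 CPM in APAP and 13.1 CPM in control, a fold of 1.32 (1.19 to 1.46). The BH3-only class had 25.5 CPM in APAP and 20.5 CPM in control, a fold of 1.25 (1.15 to 1.35). None of the classes came near 2-fold, and library totals gave 1.43 for the anti-apoptotic, 1.68 for the effector and 1.58 for the BH3-only class. Medians of the members' log2 folds were 0.26 for the anti-apoptotic, 0.39 for the effector and 0.41 for the BH3-only class, the last over 5 members.

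Quotients of the classes within a library do not depend on its scaling. The effector to anti-apoptotic quotient of counts was 0.146 in the APAP library and 0.124 in the control library, a ratio of 1.18 (1.06 to 1.31). With the member of most counts left out of both classes, Mcl1 and Bak1 at once, the quotient was that of Bax to Bcl2l1. It was 0.179 in APAP and 0.207 in control, a ratio of 0.868 (0.732 to 1.03). The BH3-only to anti-apoptotic quotient was 0.215 in the APAP library and 0.194 in the control library, a ratio of 1.11 (1.01 to 1.22), which halved counts widened to 0.977 to 1.26. With the member of most counts left out of both classes, here Mcl1 and Bid, that ratio was 1.004 (0.885 to 1.14). Without Bik, a choice made after its value was seen, the ratio of all other members was 0.973 (0.883 to 1.07). The BH3-only to effector quotient was 1.48 in APAP and 1.57 in control, a ratio of 0.943 (0.827 to 1.08), and without Bik 0.827 (0.721 to 0.948), or 0.681 to 1.004 with halved counts. Sums per kb of exon length give short genes such as Bik more weight. With them the BH3-only to anti-apoptotic quotient was 0.289 in APAP and 0.219 in control, a ratio of 1.32. The BH3-only to effector ratio was 1.12. Without Bik these 2 per kb ratios were 1.05 and 0.885. Intervals were not formed for ratios per kb.

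Quotients of single genes were formed for all 36 pairs of the 9 members. The interval of the ratio excluded 1 in 24 pairs, or in 20 with halved counts; these intervals were not adjusted for the number of pairs. All 8 pairs with Bik excluded 1 with either treatment, from 1.68 (1.22 to 2.31) against Bbc3 to 3.59 (2.60 to 4.98) against Bmf. The Bik to Mcl1 quotient was 0.0683 in the APAP library and 0.0262 in the control library, a ratio of 2.61 (2.06 to 3.34). The Bik to Bcl2l1 quotient was 0.134 in APAP and 0.0714 in control, a ratio of 1.88 (1.47 to 2.42). All 8 pairs with Bmf also excluded 1 on the deposited counts. Bik and Bmf had the highest and the lowest fold of the 9, so these counts follow in part from their place in the order. Each set of 8 pairs reuses the counts of 1 gene. No share was formed over pairs of other genes. The 5 genes Bbc3, Bcl2l1, Bak1, Bcl2l11 and Bax were set together because they are neighbours in the order by fold, so that the absence of an interval excluding 1 among them describes that choice. The Bcl2l1 to Bax quotient, 5.58 in APAP and 4.84 in control, had a ratio of 1.15 (0.970 to 1.37).

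**Figure D4:**
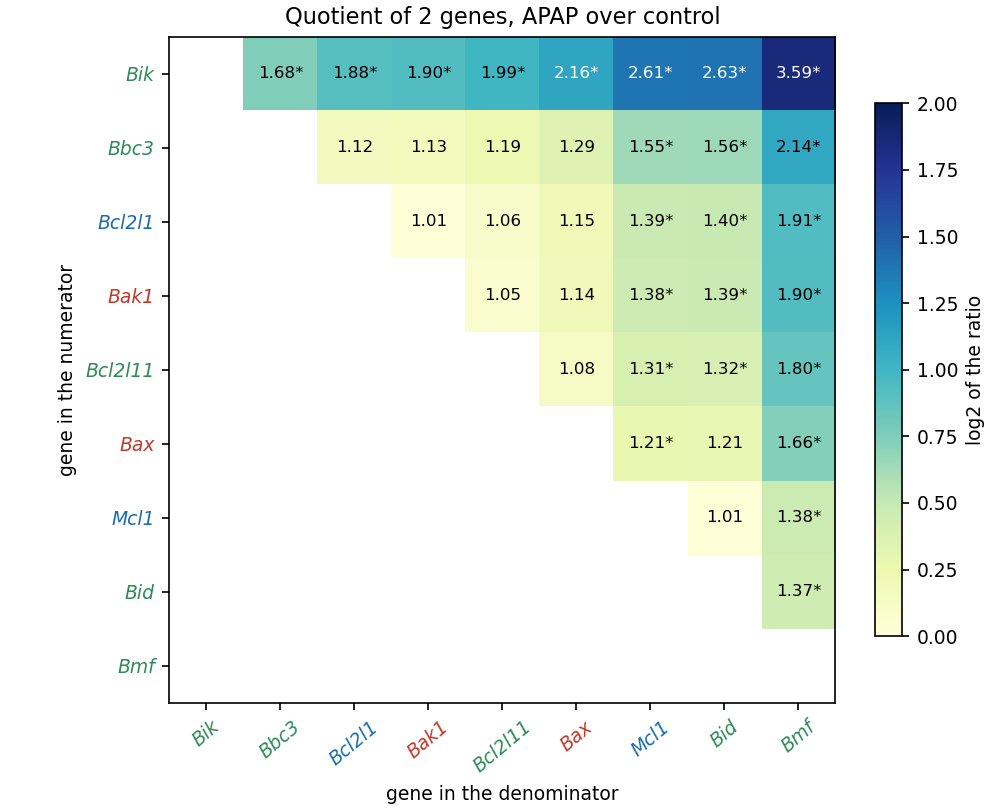
Each cell gives the quotient of the row gene to the column gene in the APAP library divided by that in the control library, with genes ordered by fold and the shade showing its log2; an asterisk marks a 95% counting interval that excludes 1. The Bik row runs from 1.68 to 3.59, all marked, and the cells among Bbc3, Bcl2l1, Bak1, Bcl2l11 and Bax, neighbours in that order, carry no mark.

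Other relatives of the family and its mitochondrial partners gave a median log2 fold of -0.27 over 12 genes with at least 20 counts, or 0.08 with library totals. None was called higher and 1 of 12 was called lower, against 10.7% and 7.09% of all tested genes: Bcl2l14, at 8 counts in the APAP library and 18 in the control library, with a ratio of 0.359 (0.135 to 0.869) that was no longer called with library totals. Bcl2l2, which encodes the survival protein BCL-W, had 13.8 CPM in the APAP library, against 16.1 CPM in the control library, a ratio of 0.855 that lay above 1 with library totals. Bcl2 itself was near absent, with 7 counts in APAP and 2 in control. Bad, a BH3-only gene controlled by phosphorylation, had 12.9 CPM in APAP and 10.9 CPM in control, and Bok, an effector relative, had 4.54 CPM in both. Hrk, Bcl2l15 and Bnipl had 2 counts in the APAP library and 0 in the control library. Bcl2l10 and the haematopoietic genes Bcl2a1a, Bcl2a1b and Bcl2a1d had no row in the table and were not analysed here. The mitophagy receptor gene Bnip3 had 28.4 CPM in the APAP library, against 53.5 CPM in the control library, a ratio of 0.530 (0.498 to 0.564) that stayed just inside 2-fold and was 0.673 with library totals. Vdac1 and Mtch2, an outer membrane channel gene and the gene of a docking protein for cut BID, had the most CPM, uncorrected for length. They had 116 and 87.9 CPM in APAP against 144 and 109 CPM in control. Their ratios of 0.803 and 0.805 lay above 1 with library totals.

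Among 15 genes that act upstream of BH3-only proteins, 3 were called higher and 0 lower, against 10.7% and 7.09% of all tested genes. Their median log2 fold was 0.06. Dynll1, which encodes the dynein light chain that holds BIM on microtubules, had 46.5 CPM in the APAP library, against 9.74 CPM in the control library, a fold of 4.78 (4.32 to 5.29). Dynll2, the light chain that tethers BMF, had 125 CPM in APAP and 151 CPM in control, a ratio of 0.834 that lay at 1.06 with library totals. Ddit3 encodes CHOP, a stress factor known to induce Bcl2l11 and Bbc3, and had 14.0 CPM in APAP and 4.32 CPM in control, a fold of 3.23 (2.77 to 3.79). Casp2, an initiator caspase that can cut BID, had 2.52 CPM in APAP and 1.20 CPM in control, a fold of 2.09 (1.53 to 2.90), so that its lower bound lay below 2. Akt2, a survival kinase gene, was abundant at 105 CPM in APAP and 92.1 CPM in control.

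Downstream of the mitochondria, 1 of 12 genes of the apoptosome and executioner list was called higher, or 2 with library totals, and 0 were called lower, where 10.7% of all tested genes were called higher, or 17.3% with library totals. The median log2 fold of the list was 0.04. That gene was Apaf1, the scaffold of the apoptosome, with 73 counts or 1.27 CPM in the APAP library and 6 counts or 0.129 CPM in the control library. The fold of Apaf1 was 9.84 (4.31 to 27.7), from few control counts. Aifm1 and Cycs, which encode proteins released from mitochondria, had the most CPM of the list, uncorrected for length. They had 83.9 and 72.9 CPM in APAP against 102 and 63.7 CPM in control. The ratio of Aifm1, 0.824, lay above 1 with library totals. Processed copies of Cycs may share its reads. Of 6 inhibitor of apoptosis genes with at least 20 counts, 2 were called higher and 0 lower, against 10.7% and 7.09% of all tested genes, around a median log2 fold of 0.11. Birc5, a mitotic gene as well as a family member of these inhibitors, had 2.28 CPM in APAP and 0.430 CPM in control, a fold of 5.30 (3.29 to 8.96). Naip2, an inflammasome sensor gene, had 5.10 CPM in APAP and 2.21 CPM in control, a fold of 2.30 (1.83 to 2.91), and near-identical Naip copies make its value uncertain. Birc6 and Xiap had the most CPM, uncorrected for length, at 91.7 and 71.0 CPM in APAP against 111 and 105 CPM in control. The ratio of Birc6, 0.827, lay above 1 with library totals.

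Among all tested genes, 10.7% met the 2-fold rule upward and 7.09% downward. None of 9 genes that control MCL1 protein turnover and none of 12 genes of mitochondrial fission and permeability met it in either direction. Medians of the log2 folds were -0.20 and -0.24, or 0.15 and 0.11 with library totals. Huwe1, a ubiquitin ligase of MCL1, had 181 CPM in the APAP library, against 239 CPM in the control library. Usp9x, which removes ubiquitin from MCL1, had 122 CPM in APAP and 149 CPM in control, a ratio of 0.818 that lay above 1 with library totals. Mfn2 and Opa1, which drive fusion of the outer and the inner membrane, had 87.7 and 64.8 CPM in APAP against 147 and 98.4 CPM in control. The ratio of Mfn2 was 0.595 (0.573 to 0.617), and 0.755 with library totals.

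**Figure D5:**
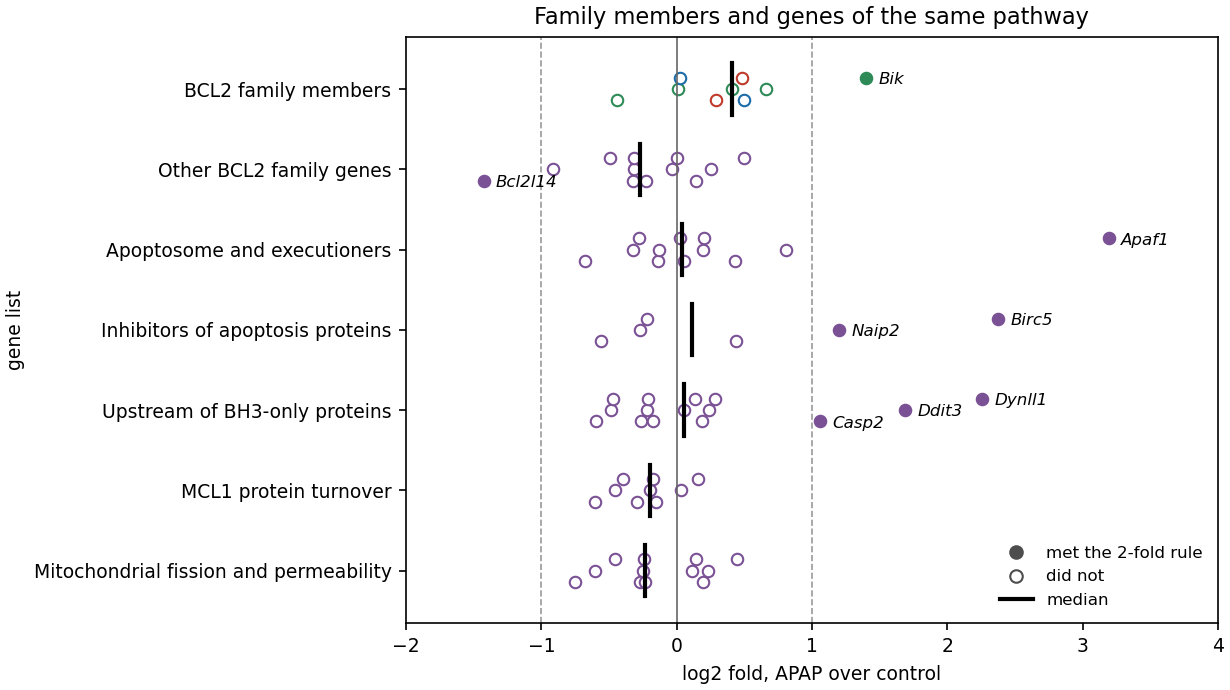
Log2 fold, APAP over control, of each gene with at least 20 counts in the BCL2 family and 6 lists of related genes; filled points met the 2-fold rule, bars are medians and dashed lines mark 2-fold. The named genes are Bik, Bcl2l14, Apaf1, Naip2, Birc5, Casp2, Ddit3 and Dynll1.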

How the data were processed

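One deposited table gave raw counts by Ensembl identifier, not normalized by the authors, with 0 genes at 0 counts in both libraries. The other gave a signal, in which the authors divided each count by a size factor per library (1.12 for APAP, 0.894 for control). HISAT2, Subread and build mm39 were named, per the submitters' processing notes; annotation, strand setting and handling of read pairs are not given in the sources used here. Symbols came from a table that matched 20679 of 20823 identifiers. Counts were scaled by TMM (edgeR 4.0.16, R 4.3.3; factors 1.13 for APAP and 0.887 for control). Folds are ratios of CPM, APAP over control, with exact conditional Poisson (Clopper-Pearson) 95% intervals; levels carry exact Poisson intervals; quotients of genes carry exact conditional odds ratio intervals. A gene was called at a fold of at least 2, an interval excluding 1 and at least 20 counts. Medians of log2 folds used a prior of 0.5 counts. The members and lists were chosen with earlier results of these data known. Named were all members and, of each list, up to 3 called genes with the highest and the lowest fold and the 2 with the most CPM over both libraries; Bcl2, Bcl2l2, Bad, Bok, Bnip3, Dynll2 and the genes named for few counts or no row were chosen after their values were seen. Low counts (1 to 20) were even in 70.7% of APAP and 68.3% of control cases, so an alternative halved counts for the interval. Other alternatives were scaling by totals, totals after removal of 18 genes that exceed 1%, DESeq2 1.42.0 size factors, the authors' signal and upper quartile. Further ones were count minimums of 10, 100 and 0, a fold of 1.5, a prior of 2, and classes without their member of most counts. Steps were tested on simulated data. Python 3.11.15 with scipy 1.17.1 was used. Exon lengths and coding windows were read from GENCODE M21 with biopython 1.88; no coordinates are given, since its build is not mm39. The coding window of Pmaip1 is not reported here.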

Additional observations from a re-analysis of the deposited data

How the results depend on the processing

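No paired analysis was possible because each group has 1 library. Direction and call rule were kept for Bik under every scaling, halved counts and each count minimum, and 0 members were lower in any of them. Members called higher numbered 2, Bik and Bbc3, with library totals and with totals without the genes above 1%, and also 2 when the threshold was 1.5-fold in place of 2-fold. DESeq2 size factors and the upper quartile kept class values within counting error. The authors' signal has the same scaling as the DESeq2 size factors and adds no separate check. Summed class log2 folds with library totals were 0.51 (anti-apoptotic), 0.75 (effector) and 0.66 (BH3-only), and without the genes above 1% 0.51, 0.74 and 0.66. Medians of the same classes with library totals were 0.61, 0.73 and 0.75, and without the genes above 1% 0.60, 0.73 and 0.75. These shifts follow from the scaling, which moves every gene alike. Without Mcl1 the anti-apoptotic sum and median were 0.50 and 0.50, and without Bid the BH3-only sum was 0.50. Sums per kb, an alternative added after seeing the data, gave 0.54 for BH3-only, or 0.21 without Bik. With library totals, with or without the genes above 1%, 16 recomputed member folds left the counting interval, and the log2 fold of Bid, 0.01, was -0.0038 with DESeq2 size factors. Depth limits Pmaip1, with 4 counts in all.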
